A study of Mus musculus with 6 samples.

Results

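ATP-binding cassette (ABC) transporter genes were taken as every gene whose single symbol in the platform annotation was Abc, a subfamily letter from a to g, a number and at most 1 further letter. This gave 45 genes of 18194, on 92 of 45101 probe sets: 14 genes of subfamily A, 8 of B, 10 of C, 3 of D, 1 of E, 3 of F and 6 of G. Unless another is named, values are those of the brightest probe set of a gene, judged by its mean over the 6 arrays. The study measured RNA of sorted LGMP, the progenitor-like cells of a mouse leukaemia driven by the MLL-AF9 fusion, on 6 Affymetrix arrays. Cells positive for cKit were infected with MLL-AF9-IRES-YFP, and 50000 of them were given with 250000 wild-type support marrow cells to irradiated wild-type recipients aged 12 weeks. The WT group (n = 3, labelled male) had the genotype EF1αwt/wt ROSAwt/CreERT2 and the N1-IC group (n = 3, labelled female) the genotype EF1αwt/lsl-N1-IC ROSAwt/CreERT2, which carries an allele at EF1α from which Cre releases N1-IC, the active intracellular part of the receptor Notch1. Both groups carried MLL-AF9 and CreERT2, and both got 2 tamoxifen injections of 0.2 mg per g of body weight from 4 weeks after transplantation, the last 6 days before analysis. LGMP were sorted from bone marrow as cells without lineage markers or Sca1 and positive for cKit, YFP, CD34 and FcgRII/III, so the YFP gate keeps infected cells and leaves out support cells. Genotype and sex cannot be told apart for any gene. Of the 45 ABC genes 0 lay on chromosome X or Y. How many recipients gave the cells of a sample is not in the labels. The p-values therefore measure spread among samples that may differ only technically.

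ABC proteins bind and hydrolyse ATP on paired nucleotide-binding domains, and most of them use that energy to move lipids, metabolites, drugs or peptides across a membrane. Full transporters carry all domains in a single chain, short forms work as dimers, and the proteins of subfamilies E and F have no membrane part and act on ribosomes. In blood-forming tissue Abcg2 and the Abcb1 genes are known for the dye efflux that marks stem cells and for drug resistance of leukaemia cells, and Abca1 and Abcg1 for the export of cholesterol.

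The cells carried the RNA of the sorted population. All 10 genes of the list of granulocyte-macrophage progenitors and of the sort gate lay above the array medians, with Kit at 10.23 to 10.76, Cd34 at 10.05 to 11.69 and Fcgr3 at 12.60 to 13.12 log2 units, against array medians of 5.63 to 5.67. Of the genes listed as absent from the gate, 3 of 6 were measured: Cd3e lay at 4.70 to 6.01, Itgam at 6.93 to 7.34 and Ptprc, which all leukocytes express and which the gate does not exclude, at 11.01 to 11.67. Itgam and Ptprc were higher on all N1-IC arrays (0.25 and 0.38 log2 units). Cd34, a marker of the gate itself, was lower on all N1-IC arrays, at 11.69, 11.52 and 11.33 in WT and 11.04, 10.05 and 11.28 in N1-IC (-0.72 ± 0.32, unadjusted p = 0.0654, adjusted p = 0.618). The part of this difference in the ABC values was not tested. In bulk RNA, fewer cells of a type and less RNA per cell cannot be told apart. Single arrays stood apart in 2 marker lists. The mean of erythroid and megakaryocyte genes was 8.31 log2 units in WT replicate 2 against 5.93 to 6.55 elsewhere, and late granulocyte genes had 7.47 in WT replicate 1 against 9.74 to 10.44 elsewhere. The list for mast cells and related granulocytes averaged 8.63 to 9.03 on WT replicate 2 and N1-IC replicates 2 and 3, and 7.02 to 7.48 on the others. Across genes WT replicate 3 correlated at 0.9901 to 0.992 with the N1-IC arrays and at 0.9884 to 0.9894 with the other WT arrays.

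N1-IC was set against WT to see which ABC genes differed between the genotypes after tamoxifen. In limma over all genes 0 of 45 ABC genes passed an adjusted p under 0.05, where 0.0055% of all genes passed. Their adjusted p values lay between 0.618 and 0.995. At an unadjusted p under 0.05 there were 7 ABC genes (15.6%), where 7.98% of all genes lay under it. Of the 7, 2 were higher in N1-IC (Abcg3 and Abca13), where 4.14% of all genes were, and 5 lower (Abcc1, Abcb10, Abcc2, Abcf1 and Abca5), where 3.84% were. In 10 ABC genes (22.2%) the arrays of one group all lay above those of the other, where 14.8% of all genes had groups apart. These were the same 7 genes together with Abcg8, higher in N1-IC, and Abca8b and Abca14, lower. In total, 3 were higher, where 8.32% of all genes were, and 7 lower, where 6.52% were. The median log2 fold change of the 45 genes was -0.047 and that of all genes 0.012. ABC genes were higher in 20 and lower in 25 cases, and 44.4% higher compares with 52.6% of all genes.

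**Figure D1:**
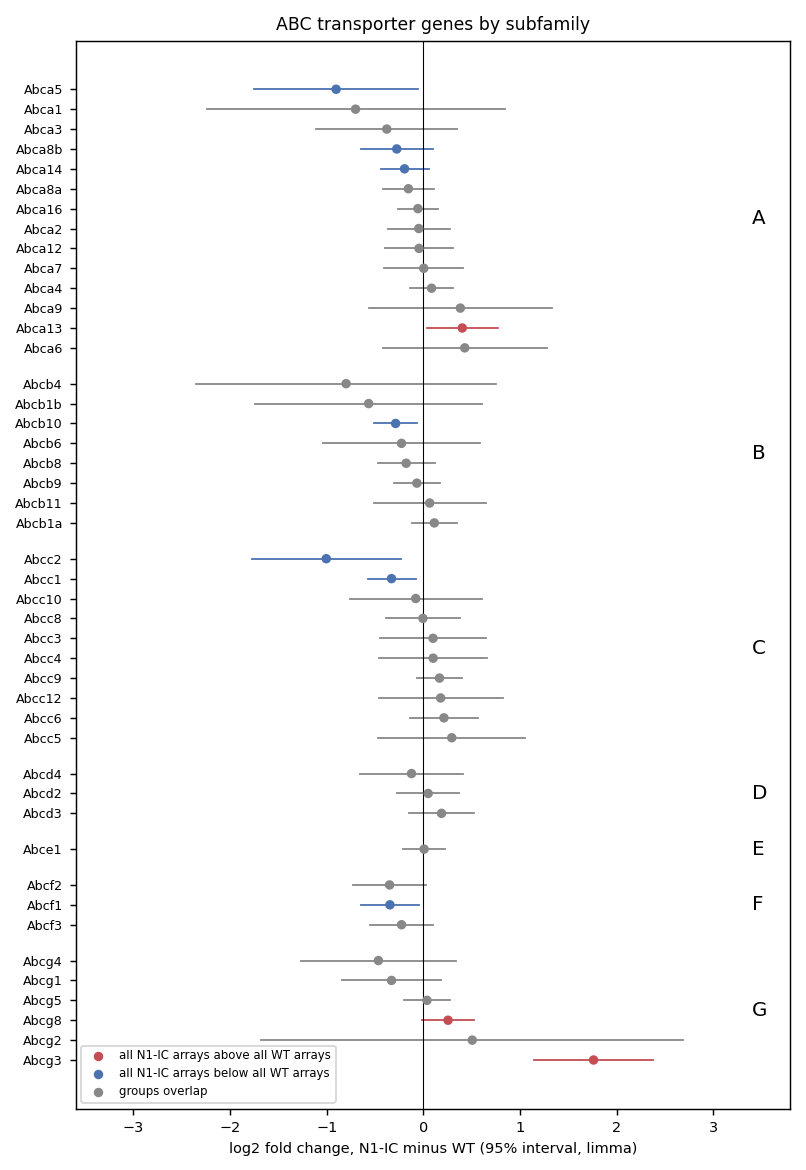
Log2 fold change of N1-IC minus WT for the 45 ABC genes, grouped by subfamily A to G (vertical axis), with 95% intervals from limma on 3 arrays per group; red and blue mark genes whose groups do not overlap. Abcg3 at 1.76 stands at the right, while Abcc2 at -1.0 and Abca5 at -0.90 lie at the left.

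Abcg3 had the highest log2 fold change among the 45 genes. It encodes a transporter of rodents of the short form, whose closest relative is the multidrug transporter Abcg2. The array values of Abcg3 were 6.05, 6.26 and 6.45 log2 units on the arrays of WT, in the order of replicates 1, 2 and 3, and 7.46, 8.28 and 8.30 on those of N1-IC. All N1-IC arrays lay above all WT arrays, and N1-IC replicate 1 was the lowest of its group. The group means of Abcg3 were 6.25 ± 0.196 (SD, n = 3) in WT and 8.02 ± 0.479 (SD, n = 3) in N1-IC, a 3.39-fold higher intensity in N1-IC. The log2 fold change was 1.76 ± 0.25 (standard error), with a 95% interval of 1.15 to 2.37, an unadjusted limma p of 0.000368 and an adjusted p of 0.618. The gene came into view through earlier results of these data, so these values are a description.

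The other probe set of Abcg3 gave the same order of the groups. It lay at 5.03, 5.85 and 5.75 in WT and at 6.75, 7.34 and 7.39 in N1-IC, which is a log2 fold change of 1.61 ± 0.28 (limma over all probe sets, unadjusted p = 0.00103, adjusted p = 0.52). Both probe sets read 1 gene in the same 6 RNA samples and are no replicates of each other. With 1 array left out at a time the log2 fold change of Abcg3 ran from 1.62 (without N1-IC replicate 3) to 2.04 (without N1-IC replicate 1), with limma adjusted p values of 0.158 to 0.837. Among markers of monocytes and macrophages 5 of 9 were higher and 4 lower in N1-IC. Of the 9, 4 had an unadjusted limma p under 0.05, where 7.98% of all genes had. All 4 were higher, where 4.14% of all genes were, namely Mrc1, C1qa, C1qb and C1qc. C1qa and C1qc lay below the median of every array, and C1qb below it except on N1-IC replicate 3, where it read 5.72. The markers lower in N1-IC, Csf1r, Cd68, Adgre1 and Cd14, lay above the medians throughout, as did Ccr2, the other higher marker. The mean over all 9 markers was 7.67 to 7.99 on the WT arrays and 7.93 to 8.08 on the N1-IC arrays. Mrc1, a macrophage lectin gene, lay at 4.43, 5.99 and 5.31 in WT and 6.11, 6.41 and 7.27 in N1-IC. The part of these cells in the Abcg3 values was not tested.

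The promoter window of Abcg3, 250 bases before to 50 after the start of the gene in RefSeq (GRCm38.p6), is shown because this member differed most. It lies at chr5:104982668-104982967 on the minus strand. The windows of Abca13 at chr11:9191692-9191991 (plus strand), the other higher member by unadjusted p, and of Abcc2 at chr19:43782058-43782357 (plus strand), the member with the lowest log2 fold change, are set beside it. Capitals mark the letters TGGGAA, the core bound by the Notch partner RBPJ, on either strand.

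Abcg3 promoter: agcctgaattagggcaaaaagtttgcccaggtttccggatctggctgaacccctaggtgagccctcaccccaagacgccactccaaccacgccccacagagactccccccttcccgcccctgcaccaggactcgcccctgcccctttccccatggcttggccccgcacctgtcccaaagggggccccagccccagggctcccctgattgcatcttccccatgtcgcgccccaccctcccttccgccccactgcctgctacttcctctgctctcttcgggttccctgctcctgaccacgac
Abca13 promoter: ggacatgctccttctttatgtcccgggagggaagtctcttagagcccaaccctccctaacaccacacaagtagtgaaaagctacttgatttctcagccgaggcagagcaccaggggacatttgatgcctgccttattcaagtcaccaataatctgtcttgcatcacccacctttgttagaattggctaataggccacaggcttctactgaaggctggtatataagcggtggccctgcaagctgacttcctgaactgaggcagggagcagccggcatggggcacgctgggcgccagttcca
Abcc2 promoter: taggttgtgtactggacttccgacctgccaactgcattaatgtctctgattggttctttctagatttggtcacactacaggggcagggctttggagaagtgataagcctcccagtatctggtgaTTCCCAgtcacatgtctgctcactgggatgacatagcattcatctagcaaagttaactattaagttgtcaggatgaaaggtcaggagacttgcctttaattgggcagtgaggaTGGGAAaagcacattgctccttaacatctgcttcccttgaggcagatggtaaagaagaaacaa

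The windows of Abcg3 and Abca13 hold no such letters, and that of Abcc2 holds them on both strands. Of the 45 genes 35 were matched to RefSeq promoter windows by Entrez identifier. The RBPJ core TGGGAA was in a window of 8 of these 35 genes (22.9%), and in 28.3% of all 27025 genes with a window. The others with it were Abca14, Abca8a, Abca8b, Abcb6, Abcc5, Abcc9 and Abcf2. The interferon response element, searched as GAAA repeated after any 2 bases, was in 0 of 35 and in 3.99% of all genes, and TTGCNNAA, read by C/EBP factors, in 5 of 35 (14.3%) and in 12.2% of all genes. AGATAA, read by GATA factors, was in 6 of 35 (17.1%) and in 12.7% of all genes. Both strands were searched. A match describes letters and not a bound site.

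On chromosome 5 Abcg3 lies beside the interferon-inducible guanylate-binding protein genes. Of its 4 nearest measured genes on either side in the RefSeq order, Gbp6 had a log2 fold change of 0.72 ± 0.37 with overlapping groups, since WT ran from 5.61 to 6.60 and N1-IC from 6.57 to 7.60. Gbp8 had -0.18, Zfp33b -0.20 and the other 5 genes between -0.068 and 0.14, all with overlapping groups. Of these 8 neighbours 0 had groups apart or an unadjusted p under 0.05.

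**Figure D2:**
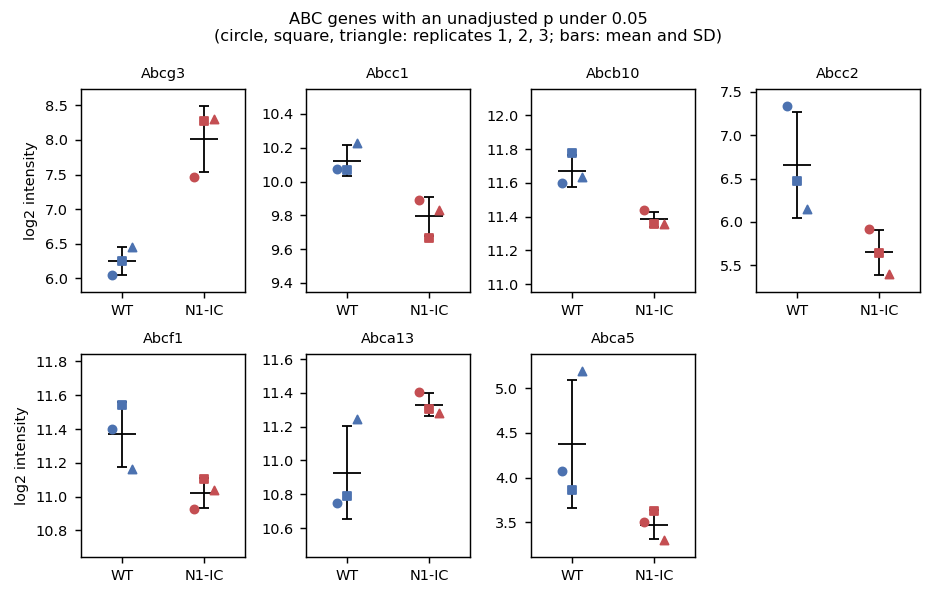
Log2 intensity (vertical axis) on each array for the 7 ABC genes with an unadjusted limma p under 0.05; points are arrays, bars the mean and SD of 3 arrays. In all 7 panels the groups do not overlap, and each panel has its own vertical range.

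The other members of subfamily G differed less or varied within a group. Abcg2, the stem cell drug pump, lay at 6.54, 10.10 and 8.29 in WT and 8.31, 8.46 and 9.68 in N1-IC. Its range over the arrays, 3.57 log2 units, was the widest of the 45 genes, and the groups overlapped (0.51 ± 0.90, adjusted p = 0.859). Leaving out WT replicate 1, the lowest array, gave -0.38, and leaving out WT replicate 2 gave 1.40. Abcg1, which exports cholesterol to high-density lipoprotein, had 11.29 ± 0.379 (SD, n = 3) in WT and 10.96 ± 0.201 (SD, n = 3) in N1-IC. Its log2 fold change was -0.33 ± 0.21, its groups overlapped, and leaving out WT replicate 1 gave -0.11.

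Abcg5 and Abcg8, which encode the partner chains of the intestinal and biliary sterol pump and lie head to head, did not give the same picture. Abcg8 ran from 5.09 to 5.38 over WT arrays and from 5.39 to 5.56 over N1-IC arrays, with groups just apart (0.26 ± 0.11, unadjusted p = 0.0582, adjusted p = 0.618). Abcg5 ran from 3.86 to 4.00 and from 3.87 to 4.07, with a log2 fold change of 0.038. Both genes lay below the array medians on all 6 arrays. Whether values this low exceed background is unknown, since detection calls were not used here.

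Subfamily A, large full transporters of lipids, held 4 of the 10 genes with groups apart, 28.6% of its 14 genes. The share was 33.3% in subfamilies F and G, 22.2% over the 45 genes and 14.8% over all genes. Abca13, which encodes the largest protein of the family, lay at 10.75, 10.79 and 11.24 in WT and 11.41, 11.30 and 11.28 in N1-IC. WT replicate 3 was the closest to the N1-IC arrays, and the gap to the lowest of them was small. The log2 fold change of Abca13 was 0.40 ± 0.15, 1.32-fold, with an unadjusted p of 0.0366 and an adjusted p of 0.618. Its other probe set had 0.49 ± 0.18, at 10.36, 10.39 and 10.93 in WT and 11.20, 11.01 and 10.94 in N1-IC, also with groups apart. Late granulocyte genes were higher in N1-IC in 11 of 11 cases, where 52.6% of all genes were. That count rests partly on the low WT replicate 1 given above. The list mean was 7.47 there, 10.24 and 9.74 on the other WT arrays, and 10.17, 10.44 and 9.92 in N1-IC. Only 1 of the 11, Mmp9, had groups apart, where 14.8% of all genes had. The same gene alone had an unadjusted limma p under 0.05, where 7.98% of all genes had. The part of late granulocyte genes in Abca13 was not tested, and leaving out WT replicate 1 gave 0.31 for Abca13.

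Abca5, a lysosomal lipid transporter gene, lay at 4.08, 3.87 and 5.19 in WT and 3.50, 3.62 and 3.30 in N1-IC. WT replicate 3 stood highest, and the other WT arrays lay little above N1-IC. The log2 fold change was -0.90 ± 0.35 (unadjusted p = 0.0398, adjusted p = 0.618), and -0.50 without WT replicate 3. On the N1-IC arrays Abca5 lay in the lowest quartile of the probe sets, so the size of this difference is uncertain. By the brightest probe set of each gene, neighbours in the Abca5 cluster on chromosome 11 did not share 1 direction. Abca8b had -0.27, Abca8a -0.15, Abca9 0.38 and Abca6 0.43, but the higher values of Abca9 and Abca6 were not stable. The other probe set of Abca9 had -0.085 ± 0.94 with overlapping groups. Abca8b was -0.11 with WT replicate 1 left out. Abca9 ranged from 0.070 with WT replicate 3 left out to 0.79 with WT replicate 2 left out, and was 0.17 with N1-IC replicate 2 left out. The value of Abca6 came from N1-IC replicate 2, at 4.13 against 2.82 to 2.89 on the other arrays, and without that array its log2 fold change was 0.0066.

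Abca1, the cholesterol exporter that loads apolipoproteins, lay at 7.05, 6.14 and 4.58 in WT and 5.80, 4.78 and 5.08 in N1-IC. The WT arrays covered more than the whole N1-IC range, and the log2 fold change of -0.70 ± 0.64 had an interval of -2.24 to 0.84. It was -0.14 when WT replicate 1 was left out and -1.37 when WT replicate 3 was. Its other probe sets, at 2.88 to 3.61, had log2 fold changes of -0.058 and 0.0070. Abca3, which fills lung surfactant stores and lysosome-like bodies, had -0.38 ± 0.30 with overlapping groups. Leaving out 1 array gave -0.15 for WT replicate 2, -0.64 for WT replicate 3 and -0.17 for N1-IC replicate 3. Abca2, of lysosomes in brain, and Abca7, linked to phagocytosis, had -0.047 and 0.0046. Abca4, known from the retina, had 0.085 and Abca12, known from skin lipid, -0.044. Abca14, with groups apart at -0.19, gave -0.12 with WT replicate 1 left out. Abca14, Abca16, Abca12 and Abca8a lay in the lowest quartile of the probe sets on all 6 arrays.

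Subfamily B joins drug pumps of the cell surface with short transporters of organelles. Abcb10, a mitochondrial short transporter needed for haem synthesis, lay at 11.60, 11.78 and 11.63 in WT and 11.44, 11.35 and 11.36 in N1-IC. The groups were apart by a narrow gap, and the spread within each was small. Its log2 fold change was -0.29 ± 0.090, 1.22-fold lower in N1-IC, with an unadjusted p of 0.0182 and an adjusted p of 0.618. A further probe set of Abcb10 also had groups apart at -0.19, while the dimmest had 0.11 with overlapping groups. Leaving out WT replicate 2, the array high in erythroid genes, gave -0.23.

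Other organelle members had overlapping groups. Abcb6, a porphyrin transporter gene, lay at 8.29, 9.56 and 8.68 in WT and 8.63, 8.89 and 8.34 in N1-IC. WT replicate 2 was the highest, and the log2 fold change of -0.23 became 0.13 without it. Abcb8, of mitochondria, had -0.18 ± 0.12, and Abcb9, a lysosomal peptide transporter gene, -0.067 ± 0.099. Of 14 measured genes of haem and iron-sulphur synthesis, 4 were higher, where 52.6% of all genes were, and 10 lower. Their median log2 fold change was -0.18, and 0 passed the limma threshold or had an unadjusted p under 0.05. Averaged over these genes, WT replicates 1 to 3 read 9.71, 10.24 and 9.75, and those of N1-IC 9.72, 9.74 and 9.78. Only WT replicate 2, the array high in erythroid genes, stood apart. The part of that array in the count was not tested. Alas1, the first enzyme of haem synthesis, had -0.24 ± 0.12 with groups apart, Glrx5 -0.25 ± 0.11 and Slc25a38 -0.44 ± 0.23.

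The surface pumps of subfamily B varied between WT arrays. Abcb1b, a P-glycoprotein gene, lay at 8.51, 8.17 and 6.78 in WT and 7.08, 6.90 and 7.79 in N1-IC, and its log2 fold change of -0.57 ± 0.48 had an adjusted p of 0.71. Leaving out WT replicate 1 gave -0.22 and leaving out WT replicate 3 gave -1.08. The paired gene Abcb1a lay at 3.10 to 3.34 on the 6 arrays, in the lowest quartile of the probe sets. Abcb4, which moves phosphatidylcholine into bile, lay at 8.64 in WT replicate 2 and at 6.21 to 6.32 on the other 5 arrays. Its log2 fold change of -0.80 ± 0.64 became -0.011 without that array. Abcb11, the bile salt pump gene of liver, lay at 3.22 to 4.03 with a log2 fold change of 0.066.

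**Figure D3:**
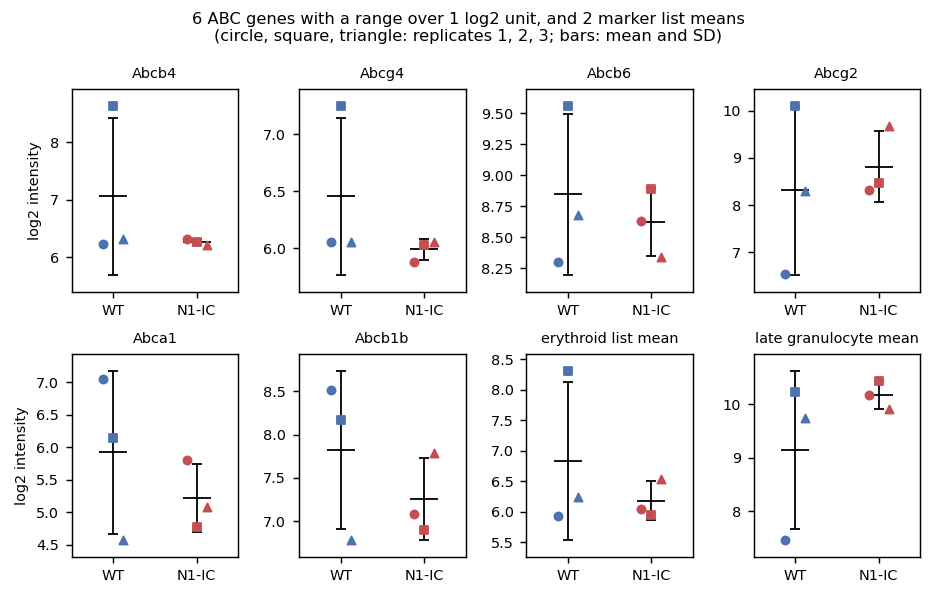
Log2 intensity (vertical axis) on each array for 6 ABC genes, and the mean log2 intensity of the erythroid and late granulocyte marker lists; points are arrays, bars the mean and SD of 3 arrays. Abcb4, Abcg4, Abcb6 and Abcg2 are highest in WT replicate 2, as is the erythroid list. Abcg2 and both lists are lowest in WT replicate 1, the erythroid list at 5.93 against 5.95 in N1-IC replicate 2.

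WT replicate 2 was the highest array for 14 and WT replicate 1 for 13 of the 45 genes, against 3 to 6 for each other array. Abcb4 and Abcg4 stood over 1 log2 unit above the next array in WT replicate 2. Abcg4, a sterol transporter gene of the brain and of megakaryocyte progenitors, lay at 7.25 there and at 5.88 to 6.06 elsewhere. Its log2 fold change was -0.46 ± 0.33 and -0.068 without that array. Its other probe set, at 4.88, 4.85 and 5.09 in WT and 5.19, 5.45 and 5.09 in N1-IC, had 0.30 opposite in sign to the brighter set. WT replicate 3 and N1-IC replicate 3 met at the same value to 2 decimals there. Klf1, the erythroid transcription factor gene, lay at 10.04 in WT replicate 2 against 5.46 to 6.25 elsewhere. Slc4a1, Ermap and Gata1 were also highest there, at 11.37, 10.97 and 9.39, while Gp1bb, Itga2b and Hba-a1 were not. Hba-a1, of haemoglobin, lay at 3.50 to 4.45 on all arrays. It was read only by probe sets with a single symbol, and the listed Hbb-b1 was not measured, so haemoglobin RNA was not settled. The part of erythroid RNA in these members was not tested.

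Subfamily C holds exporters of organic anions and glutathione conjugates. Abcc1, which encodes the multidrug resistance protein MRP1, lay at 10.07, 10.07 and 10.23 in WT and 9.89, 9.67 and 9.83 in N1-IC. All N1-IC arrays lay below all WT arrays. The log2 fold change was -0.33 ± 0.10, 1.26-fold lower, with an unadjusted p of 0.0175 and an adjusted p of 0.618. Its other probe set had -0.42 ± 0.14 with groups apart too. With 1 array left out at a time the log2 fold change of Abcc1 stayed between -0.38 and -0.26.

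Abcc2, the canalicular conjugate pump gene of liver, had the lowest log2 fold change of the 45 genes. It lay at 7.34, 6.48 and 6.15 in WT and 5.91, 5.65 and 5.39 in N1-IC, with WT replicate 1 the highest and a small gap between the groups. The log2 fold change was -1.0 ± 0.32, 2.01-fold lower in N1-IC, with an unadjusted p of 0.0189 and an adjusted p of 0.618. Without WT replicate 1 it was -0.66. Abcc2 has 1 probe set, and it lay below the array median on 2 of the N1-IC arrays.

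Abcc5, an exporter of cyclic nucleotides and haem, was read by 10 probe sets, of which 9 were higher in N1-IC. The brightest lay at 6.25, 7.47 and 7.24 in WT and 7.33, 7.23 and 7.28 in N1-IC. The groups overlapped, and their difference of 0.29 ± 0.31 on the log2 scale became -0.076 without WT replicate 1. Of the other probe sets 3 had groups apart, all higher in N1-IC, at 0.40, 0.77 and 0.52 log2 units. The last had the smallest unadjusted p of them (0.00313, adjusted p = 0.606 in limma over all probe sets). It lay at 3.55, 3.54 and 3.75 in WT and 4.01, 4.21 and 4.20 in N1-IC, low on the arrays. These probe sets share a gene, and the suffixes of 2 of the 3 (x_at) mark probes that can match other transcripts.

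The remaining members of subfamily C had overlapping groups by the brightest probe set. Abcc4, which exports cyclic nucleotides and prostaglandins, had 0.10 ± 0.23 and Abcc3, a conjugate pump gene, 0.10 ± 0.22. Abcc8 and Abcc9, the sulphonylurea receptor genes of potassium channels, had -0.0040 and 0.17. A dimmer probe set of each had groups apart, at 0.18 for Abcc8 and -0.28 for Abcc9, opposite in sign to the brightest. Abcc6, Abcc10 and Abcc12 had 0.21, -0.078 and 0.18. Abcc6 and Abcc9 lay in the lowest quartile of the probe sets on all 6 arrays. Of 14 genes of glutathione and xenobiotic handling 5 were higher and 9 lower, with a median log2 fold change of -0.019, and 0 had a limma adjusted or unadjusted p under 0.05. Nfe2l2, which encodes the oxidative stress factor NRF2, had -0.18 ± 0.098 with groups apart, Gstp1 -0.17 ± 0.10 and Keap1 -0.12 ± 0.095.

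**Figure D4:**
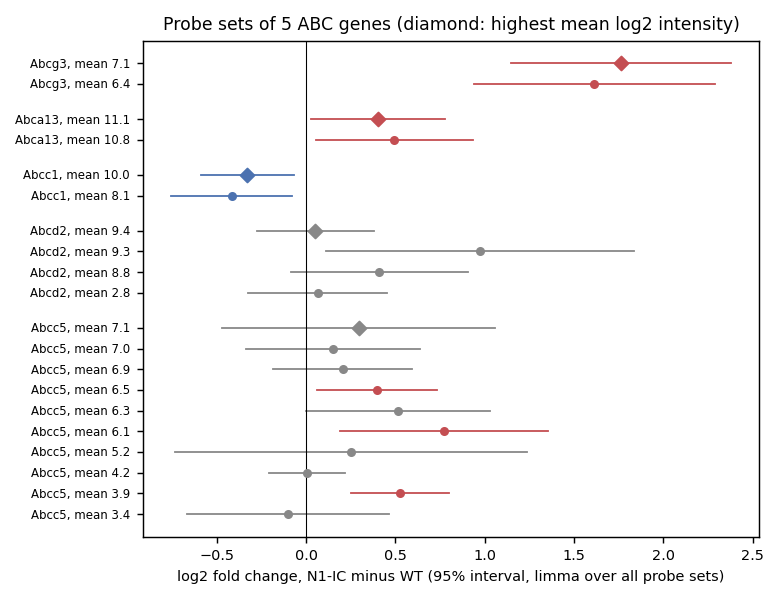
Log2 fold change of N1-IC minus WT with 95% intervals for each probe set of 5 ABC genes, labelled by mean log2 intensity (vertical axis); diamonds mark the brightest probe set, and red and blue mark groups that do not overlap. Abcg3, Abca13 and Abcc1 give the same side by both probe sets, while the brightest probe sets of Abcd2 and Abcc5 overlap between groups.

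Of the 45 genes 26 had several probe sets, which all had 1 sign in 14 genes and both signs in 12. Over the 92 probe sets 45 were higher and 47 lower, and 20 had groups apart (10 in each direction), where 14.4% of all probe sets had. In limma over all probe sets 0 of 92 passed, where 0.00887% of all passed, and 15 (16.3%) had an unadjusted p under 0.05, where 7.69% of all probe sets had.

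Subfamily D serves the peroxisome, where its short transporters import fatty acyl chains for oxidation, with the exception of the lysosomal cobalamin transporter Abcd4. All 3 genes had overlapping groups by the brightest probe set, with Abcd3 at 0.19 ± 0.14, Abcd2 at 0.050 ± 0.13 and Abcd4 at -0.12 ± 0.22. For Abcd2 a second probe set had 0.97 ± 0.35 (unadjusted p = 0.0327, adjusted p = 0.639 in limma). It lay at 8.40, 8.35 and 9.56 in WT and 9.86, 9.96 and 9.40 in N1-IC, so WT replicate 3 lay with the N1-IC arrays. Of 14 measured peroxisome genes 8 were higher and 6 lower, and 0 passed the limma threshold. With an unadjusted p under 0.05 there were 4, of which 2 were higher and 2 lower, where 7.98% of all genes lay under it. Acaa1a, a thiolase gene, had 0.36 ± 0.13, Pex2 0.31 ± 0.12 and Pex11a, a peroxisome division gene, -0.51 ± 0.19, each with groups apart.

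Subfamilies E and F act on ribosomes. Abce1, which splits ribosomes after termination, had the same mean in both groups to 1 decimal, with 12.90 ± 0.0744 (SD, n = 3) in WT and 12.90 ± 0.0758 (SD, n = 3) in N1-IC and a log2 fold change of 0.0086 ± 0.091. The interval of -0.21 to 0.23 bounds a difference between these samples for this probe set only. Further probe sets of Abce1 had 0.075 ± 0.097 and, for the dimmest, 0.47 ± 0.29, with overlapping groups. The dimmest lay at 7.48, 7.23 and 7.07 in WT and 7.87, 7.10 and 8.21 in N1-IC. The 3 genes of subfamily F were all lower in N1-IC, and none passed. Abcf1, which binds the initiation factor eIF2, lay at 11.40, 11.54 and 11.16 in WT and 10.93, 11.10 and 11.04 in N1-IC, with groups apart by a small gap. Its log2 fold change was -0.35 ± 0.12 (unadjusted p = 0.0307, adjusted p = 0.618). All 6 probe sets of Abcf1 were lower in N1-IC, and the other 5 had overlapping groups at -0.21 to -0.15.

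Abcf2 lay at 9.90, 10.15 and 9.64 in WT and 9.56, 9.41 and 9.68 in N1-IC, giving a log2 fold change of -0.35 ± 0.15 with an unadjusted p of 0.0634. Leaving out WT replicate 2 gave -0.22. Abcf3 had -0.23 ± 0.13, and the groups of both overlapped. Of 10 measured genes of ribosome recycling and initiation 2 were higher and 8 lower, with a median log2 fold change of -0.13. Of them 0 passed the limma threshold and 2, both lower, had an unadjusted p under 0.05, where 7.98% of all genes had. Pelo, the partner of Abce1 in ribosome rescue, lay at 9.53, 8.92 and 8.63 in WT and 8.21, 8.16 and 8.61 in N1-IC (-0.70 ± 0.25, unadjusted p = 0.032, adjusted p = 0.618). Impact, which restrains the amino acid sensor GCN2, had -0.49 ± 0.17 with groups apart, and Gcn1, the activator of that sensor, -0.28 ± 0.14.

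ABC proteins whose symbols follow another pattern were measured too. Cftr, the chloride channel gene that belongs to subfamily C, lay at 3.81, 5.01 and 4.07 in WT and 7.29, 6.68 and 5.30 in N1-IC. All N1-IC arrays lay above all WT arrays, by the least in N1-IC replicate 3, and 2 of the WT values lay near the lower quartile of the arrays. The log2 fold change of Cftr was 2.13 ± 0.56, with an unadjusted p of 0.00859 and an adjusted p of 0.618. Tap1 and Tap2, the peptide transporter genes of antigen presentation in subfamily B, had -0.43 ± 0.20 and -0.41 ± 0.23 with overlapping groups. In their list of peptide loading genes 4 of 10 were higher and 6 lower, and 0 had a limma adjusted or unadjusted p under 0.05. Psmb9 and Psmb8, of the immunoproteasome, had -0.24 ± 0.10 and -0.26 ± 0.12.

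Lipid partners of Abca1 and Abcg1 gave a single large difference. Of 16 measured genes of sterol efflux and the LXR receptors 8 were higher and 8 lower, with a median log2 fold change of 0.051. Of them 0 passed the limma threshold and 2 had an unadjusted p under 0.05, where 7.98% of all genes had. Apoe, which takes up exported cholesterol, lay at 8.99, 8.55 and 9.08 in WT and 7.29, 6.80 and 7.43 in N1-IC, lower on all N1-IC arrays (-1.70 ± 0.21) with an adjusted p of 0.541. Rxra, the partner of LXR, had 0.59 ± 0.22 (unadjusted p = 0.0335, adjusted p = 0.618) and Lcat 0.17 ± 0.10, both with overlapping groups. Abca1 and Abcg1 themselves overlapped between the groups, as given above.

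**Figure D5:**
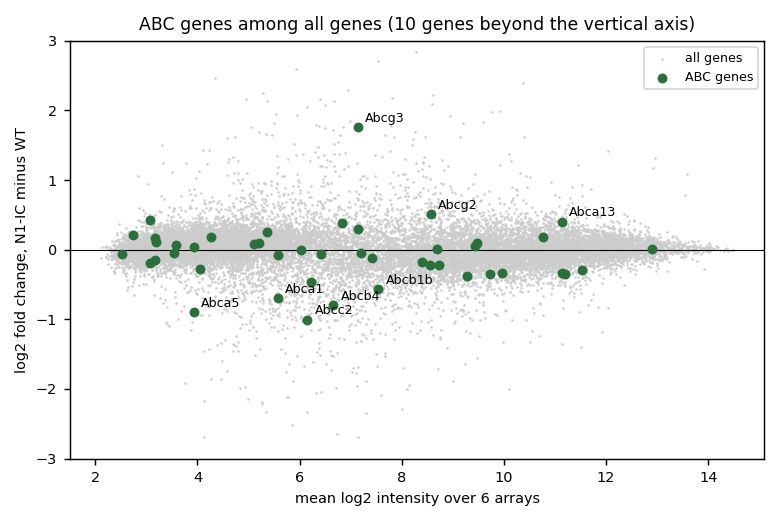
Log2 fold change of N1-IC minus WT (vertical axis) against mean log2 intensity over 6 arrays (horizontal axis) for all 18194 genes (grey) and the 45 ABC genes (green); 10 genes lie beyond the vertical axis. Abcg3 and Abcc2 are the ABC genes with an absolute log2 fold change over 1.

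In size, 2 of the 45 ABC genes (4.44%), Abcg3 and Abcc2, had an absolute log2 fold change over 1, where 1.75% of all genes had. The median absolute log2 fold change was 0.213 for ABC genes and 0.136 for all genes, and the median SD within groups was 0.205 and 0.170. Over the 6 arrays 16 members ranged by under 0.5 log2 units and 15 by over 1. On all 6 arrays 26 members lay above the array median and 16 below it, of which 7 lay in the lowest quartile throughout.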

How the data were processed

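RNA of 6 samples, 3 per genotype, was measured on Affymetrix arrays from 5 ng of amplified RNA each. The authors deposited intensities on a linear scale, processed with RMA per the submitters' processing notes (version: not given in the sources used here). These deposited values ran from 3.60 to 24044. They had nearly 1 distribution on all arrays, which removes any difference in total signal, so differences are relative to the other genes. Log2 was taken with no offset. The platform annotation gave 1 gene symbol for 34958 of 45101 probe sets, several for 932 and none for 9211, and those with 1 were used for names. All 45 ABC genes matched a RefSeq gene (GRCm38.p6) by Entrez identifier.

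Groups were taken from the sample titles. The fit of N1-IC minus WT used lmFit and eBayes of limma 3.58.1 (R 4.3.3) without a trend, a robust prior or a replicate block, over all genes with 1 probe set each. Benjamini-Hochberg adjusted p values under 0.05 were called. Errors of log2 fold changes are moderated standard errors, and intervals are at 95%. Replicate numbers are shared by the groups' titles, but deviations of same-numbered samples correlated at 0.00934, 0.061 and -0.11, so they were not taken as pairs. On simulated data with 18194 genes, 200 of them changed, the limma fit recovered 59.4% of changes of 1 and 87.2% of changes of 2 log2 units. The 200 were spread evenly over changes of 1, 2, 4 and 6 log2 units. An adjusted p depends on how many genes differ, and 1 gene passed in the data. These shares are therefore a check of the code and no measure of power for the ABC genes. Alternatives were a trend, a robust prior, array weights, other scalings, an offset of 16, a level filter, other probe set choices, a replicate block, each array left out, no X or Y genes, and other thresholds. Members, partner lists and marker lists were chosen with earlier results of these data known. All members are named. Values on each array are given for Abcg3, for members with an unadjusted p under 0.05 and for others whose groups turn on an array. Up to 3 genes of smallest p are named per partner list. Other genes named, such as neighbours of Abcg3 and single markers, were chosen after their values were seen. Lists of stem, B, T and NK, mast and stromal genes gave 0 members past the limma threshold, with 0, 0, 1, 0 and 0 members at an unadjusted p under 0.05.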

Additional observations from a re-analysis of the deposited data

How the results depend on the processing

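The count of ABC genes past the threshold was 0 in limma under all alternatives run, including the replicate block, and Abcg3 stayed positive in each, at 1.58 to 2.04 with adjusted p values of 0.158 to 0.837. The 7 members with an unadjusted p under 0.05, Abcg3 among them, kept their sign throughout. Their groups do not overlap, so leaving out 1 array could not reverse a sign. A trend, a robust prior, the replicate block and other thresholds leave the log2 fold change as it is. The number of ABC genes with groups apart, 10 of 45, was 5 of 21 where only genes of at least median level were tested (15.7% of all genes then) and 20 of 92 over all probe sets (14.4%). It was 12 to 17 with 1 array left out, where 22.8 to 34.1% of all genes had groups apart: 17 (37.8%) without WT replicate 3 beside 34.1%, and 16 (35.6%) without N1-IC replicate 3 beside 27.5%. The median log2 fold change of all ABC genes tested was -0.12 with that level filter, beside -0.025 over all genes then. With 1 array left out it was between -0.097 and -0.029, beside 0.0080 to 0.018 over all genes.

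The count over all genes, 1, was 3 with a trend, 2 with array weights, 2 with the level filter, 5 with the mean of probe sets, 4 over all probe sets, 0 with the replicate block, 0 without chromosomes X and Y and 4 at an adjusted p under 0.1. It was 0 to 5 with 1 array left out (5 where WT replicate 2 was dropped, 0 for WT replicate 3, 2 for N1-IC replicate 1 and 3 for N1-IC replicate 2). Members near 0 changed sign: Abca2 at 0.021, Abcc8 at 0.031, Abce1 at -0.023 with further quantile normalization; Abca7 at -0.015, Abcc8 at 0.017 with array weights; Abcb9 at 0.070, Abcc8 at 0.087, Abcc9 at -0.069 with the mean of probe sets; Abcc8 at 0.010 with median centring. With 1 array left out the log2 fold changes that crossed 0 were Abca12 -0.14 to 0.083, Abca2 -0.11 to 0.067, Abca7 -0.14 to 0.13, Abcb11 -0.14 to 0.26, Abcb6 -0.50 to 0.13, Abcc10 -0.34 to 0.23, Abcc12 -0.11 to 0.43, Abcc3 -0.099 to 0.32, Abcc4 -0.029 to 0.34, Abcc5 -0.076 to 0.54, Abcc8 -0.16 to 0.11, Abcd2 -0.057 to 0.16, Abcd4 -0.36 to 0.041, Abce1 -0.024 to 0.051, Abcg2 -0.38 to 1.40, Abcg5 -0.020 to 0.081. The causes were not tested. Signals in the lowest quartile of the arrays, without detection calls, limit what can be said of Abca5, Abca14 and other dim members.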
